A study of Mus musculus with 6 samples.

Results

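Sbk2, a serine/threonine kinase gene of the SH3-binding domain kinase family, was among the transcripts that fell in gastrocnemius muscle expressing a constitutively active aryl hydrocarbon receptor, and it was examined here beside 8 other protein kinases of striated muscle. These were its neighbour and relative Sbk3, the myosin light chain kinases Mylk2, Mylk3 and Mylk4, the SR protein kinase Srpk3, the giant sarcomeric kinase Speg, and the alpha kinases Alpk2 and Alpk3. The 9 genes were taken by symbol from a table of 49315 genes. Each symbol matched 1 row, and all 9 passed the filter on low counts, Mylk3 only through the CAAHR libraries. Sbk2 was selected on its fall in this very comparison, so its values are given as a description with no test. The other 8 were named as kinases of striated muscle, with earlier results of these data known. They were tested with p-values adjusted over all 15847 genes that passed the filter.

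RNA came from the gastrocnemius of male C57BL6J mice that received an intramuscular injection of adeno-associated virus at 5 months of age, with the muscle taken 5 months later. One group received AAV9-HSA-CAAHR, which carries a mouse Ahr coding sequence without the ligand-binding domain, so that the receptor is active with no ligand. The control group received AAV9-HSA-GFP, the same vector with a green fluorescent protein. Expression of either transgene came from the human skeletal actin promoter (HSA), a promoter of muscle fibres and not of the vessels, immune cells or connective tissue that a whole muscle also holds. Each group had 3 libraries (CAAHR 31, 34 and 36, and GFP 42, 43 and 46, numbered as in their titles), every animal compared had received virus, and muscle without virus was not analysed here. Library totals ran from 43432994 to 58825752 counts. The labels give each library a number of its own but do not describe the animals further, so p-values measure the spread between these libraries.

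Ahr and its target Cyp1a1 were both higher in the CAAHR libraries. Ahr, read at 9.97, 22.8 and 17.3 CPM (counts relative to the library total, with TMM scaling) in CAAHR 31, 34 and 36, was at 2.47, 2.55 and 1.87 CPM in GFP 42, 43 and 46, and reads from the delivered coding sequence cannot be told apart from those of the mouse gene. Its target Cyp1a1 was between 1231 and 1680 CPM in the CAAHR libraries and between 5.85 and 7.74 CPM in the GFP libraries. Skeletal muscle identity was clear in all 6 libraries, with Acta1, the skeletal muscle actin, at 21660 CPM or more in each.

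Protein kinases of the myofibre act on contraction, on the splicing of muscle transcripts and on the upkeep of the sarcomere. Myosin light chain kinases phosphorylate the regulatory light chain of myosin, which raises the force a fibre makes at a given calcium level. The skeletal muscle form, Mylk2, is switched on by calcium and calmodulin. Srpk3 phosphorylates splicing factors rich in serine and arginine and is known as a target of the transcription factor MEF2, Speg binds proteins of the junctional membranes that release and take up calcium, Alpk3 sits at the sarcomere's M-band and its loss causes cardiomyopathy, and the SBK kinases remain little studied.

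The genes lie apart in the genome except for the SBK pair. On GRCm38 with GENCODE M21 annotation, Sbk2 (ENSMUSG00000030433) occupies 4940512 to 4964406 on the minus strand of chromosome 7, and Sbk3 (ENSMUSG00000085272) occupies 4965260 to 4971168 on the same strand, 854 bases away. Alpk3 (ENSMUSG00000038763) is farther along chromosome 7 at 81057600 to 81105612 on the plus strand. Mylk2 is on chromosome 2, Mylk3 (ENSMUSG00000031698) on chromosome 8, Mylk4 (ENSMUSG00000044951) on chromosome 13, Srpk3 (ENSMUSG00000002007) on chromosome X and Speg on chromosome 1. None of these shares exon bases with another gene. Exons of Alpk2 overlap 1444 bases of predicted genes on the opposite strand, and the methods describe counting by strand only for strand-specific libraries without saying whether these were, so part of its count could belong to them.

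Promoter sequence is shown for the kinase chosen for its fall and for the 3 others with both a changed transcript and a MEF2 motif. Windows of 250 bases before to 50 after the start, taken from RefSeq on GRCm38.p6, were found for 7 of the 9 genes (Mylk2 and Alpk2 had none). The 250 bases before the start are printed 5′ to 3′ on the gene's strand for Sbk2 (chr7:4964407-4964656, minus), Mylk4 (chr13:32783965-32784214, minus), Srpk3 (chrX:73774155-73774404, plus) and Alpk3 (chr7:81057350-81057599, plus). Capitals mark GCGTG, the core of the element bound by AHR, the E-box CANNTG and the MEF2 motif, each searched on both strands.
Sbk2: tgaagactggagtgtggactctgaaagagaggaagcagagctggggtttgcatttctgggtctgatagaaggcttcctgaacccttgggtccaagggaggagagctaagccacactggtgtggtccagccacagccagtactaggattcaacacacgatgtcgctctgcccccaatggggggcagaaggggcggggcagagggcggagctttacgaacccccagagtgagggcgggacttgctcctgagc
Mylk4: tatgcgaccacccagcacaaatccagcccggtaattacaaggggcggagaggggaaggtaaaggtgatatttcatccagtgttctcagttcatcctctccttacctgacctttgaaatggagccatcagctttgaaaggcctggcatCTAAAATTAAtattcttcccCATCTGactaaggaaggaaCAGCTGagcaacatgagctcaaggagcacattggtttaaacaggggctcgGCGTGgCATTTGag
Srpk3: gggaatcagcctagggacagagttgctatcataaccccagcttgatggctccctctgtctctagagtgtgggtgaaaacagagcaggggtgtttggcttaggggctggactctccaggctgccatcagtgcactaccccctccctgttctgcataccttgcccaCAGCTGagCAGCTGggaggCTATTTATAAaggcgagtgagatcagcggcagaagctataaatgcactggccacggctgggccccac
Alpk3: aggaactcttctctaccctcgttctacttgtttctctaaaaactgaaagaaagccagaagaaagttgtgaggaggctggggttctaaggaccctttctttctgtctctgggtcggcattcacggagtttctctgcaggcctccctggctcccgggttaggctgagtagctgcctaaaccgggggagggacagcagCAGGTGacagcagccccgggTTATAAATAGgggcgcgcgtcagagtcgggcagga

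Across the whole windows, the MEF2 motif was present for 4 of the 7 kinases, with its first base 103 bases before the start in Mylk4, 67 in Srpk3, 51 in Speg and 35 in Alpk3. Of all 32851 promoter windows, 3.19% held it. The 7 kinases had 11 windows, of which Speg had 4, with the MEF2 motif in only 1, and Mylk3 had 2. Counts by kinase are therefore not on the same footing as shares of windows, here and for the motifs below. Among the 4 genes with the MEF2 motif were transcripts that were lower, higher and not called in the CAAHR libraries (values follow), so the motif was found on either side of the change. The GCGTG core was found for Mylk4 alone among the 7, with its first base 14 bases before the start, and 32.4% of all windows held it. E-boxes, present in 72.3% of all windows, occurred in a window of 6 of the 7 kinases and not in that of Sbk2, which held no match to any of the 3 motifs. No matches overlapped one another. These are matches of letters in short windows and say nothing of whether a factor binds there or elsewhere.

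Of the 8 kinases other than Sbk2, 4 were called in the CAAHR libraries (edgeR adjusted p under 0.05), 2 higher (Mylk3 and Alpk3) and 2 lower (Mylk4 and Srpk3), and 1 of these, Mylk3, also changed by a log2 value over 1. Mylk3 passed the filter on low counts only through the CAAHR libraries, where it was high. With at least 10 counts required in every library it was dropped, and 3 kinases were called (Alpk3, Mylk4 and Srpk3). Over all 15847 genes tested, 7.60% were called, 3.04% higher and 4.57% lower, and 3.48% were called with an absolute log2 fold change over 1. The 8 kinases were chosen with earlier results of these data known, so setting their count beside these shares is no test. The groups did not overlap for 4 of the 8, against 29.9% of all genes. The median log2 fold change of the 8 was 0.38, and that of all genes was 0.01. Because the values of the 8 lay on both sides of 0, this median is no summary of them, and with a minimum of 10 counts in every library, which drops Mylk3, it was 0.07. At 8 genes these shares are coarse, and the count of 4 went to 2 without CAAHR 31 or without CAAHR 36 (Mylk3 and Alpk3 remained) and to 6 without CAAHR 34 (Sbk3 and Alpk2 were added).

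**Figure D1:**
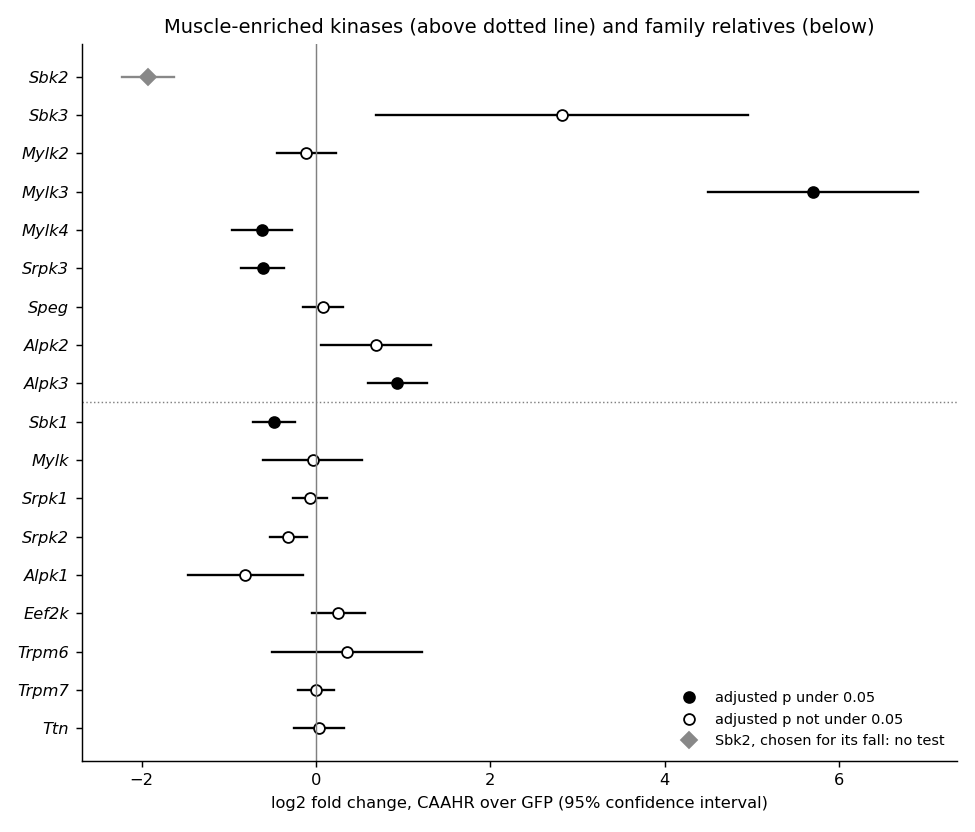
Log2 fold change of CAAHR over GFP (horizontal axis) with its 95% confidence interval for the 9 kinases, above the dotted line, and 9 family relatives, below it. Filled circles mark genes called at 0.05, open circles the rest, and the grey diamond Sbk2, which was not tested. The interval of Sbk2 takes no account of its having been chosen for its fall. Mylk3 lies farthest to the right at 5.70, Mylk4, Srpk3 and Sbk1 lie left of 0, and the widest interval is that of Sbk3.

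Sbk2 was at 186, 207 and 255 CPM in GFP 42, 43 and 46 and at 52.0, 59.4 and 58.5 CPM in CAAHR 31, 34 and 36. The lowest GFP library stood well above the highest CAAHR library, and the 3 CAAHR libraries lay close together. The level in the GFP libraries was 3.81 times that in the CAAHR libraries (log2 fold change -1.93). This is the value for which the gene was chosen. The log2 fold change ranged from -2.03 to -1.79 over the 14 other settings of the fit, which use the same libraries and add no independent support.

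Sbk3, the neighbouring relative, was scarce in all libraries and higher in only part of the CAAHR group. It was read at 0.249, 0.264 and 0.491 CPM in the GFP libraries and at 4.81, 0.438 and 2.03 CPM in CAAHR 31, 34 and 36. CAAHR 34 fell inside the GFP range while the other CAAHR libraries were above it. The log2 fold change of 2.82 ± 0.88 SE (95% confidence interval 0.69 to 4.96) did not pass (edgeR adjusted p = 0.114). Without CAAHR 34 it was 3.31, with an adjusted p of 0.00203, and without CAAHR 31 it was 1.86, with an adjusted p of 0.161. With all libraries DESeq2 gave an adjusted p of 0.0273, so whether it was called depended on the library and on the tool. In counts, Sbk3 totalled 392 in the CAAHR and 49 in the GFP libraries.

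Sbk1, the broadly expressed member of the family, was lower in the CAAHR libraries. It was read at 20.1, 19.6 and 18.0 CPM against 28.5, 23.4 and 28.5 CPM in GFP 42, 43 and 46, and the groups did not overlap. Its log2 fold change of -0.48 ± 0.11 passed (edgeR adjusted p = 0.0277), though the call was lost when CAAHR 31, CAAHR 36, GFP 42 or GFP 46 was left out. Within a library, the log2 ratio of Sbk2 to Sbk1 counts was 3.004 ± 0.26 (SD, n = 3) in the GFP and 1.56 ± 0.17 in the CAAHR libraries. Since Sbk2 was chosen for its fall, this lower ratio is a description and not a test.

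Sbk2 made up most SBK family transcript in every library. On the scale of CPM per kb of exon, which allows levels of different genes to be compared, Sbk2 held 91.3% ± 1.46 (SD, n = 3) of the summed level of the 3 SBK genes in the GFP libraries and 77.2% ± 4.07 in the CAAHR libraries. The share of Sbk1 was 8.56% ± 1.47 in the GFP and 19.5% ± 1.39 in the CAAHR libraries, and that of Sbk3 was 0.136% ± 0.0333 and 3.30% ± 3.05. The summed level itself was 75.04 ± 11.5 CPM per kb in the GFP libraries and 23.3 ± 0.466 in the CAAHR libraries. Sbk2 held most of the sum and was chosen for its fall. The lower sum and the lower share of Sbk2 follow from that choice and are no separate result about the family.

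**Figure D2:**
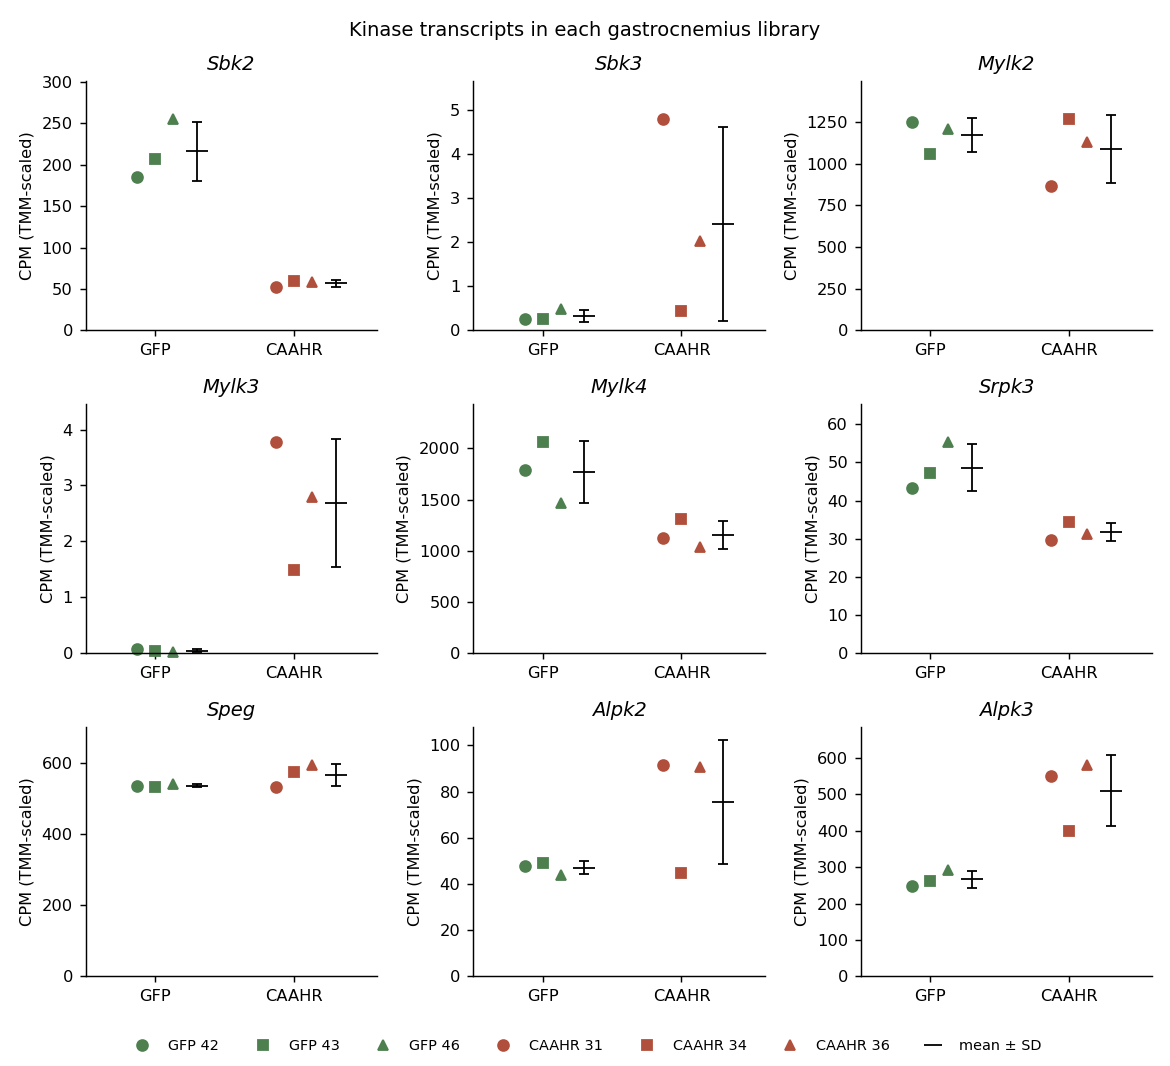
Scaled level (CPM, linear axis from 0, a separate scale in each panel) of each of the 9 kinases in the 3 GFP and 3 CAAHR libraries, with 1 symbol per library and the mean ± SD beside it. Sbk2, Mylk4 and Srpk3 are lower in every CAAHR library than in any GFP library, Mylk3 and Alpk3 are higher in every one, and CAAHR 34 lies within the GFP range for Sbk3 and Alpk2.

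The myosin light chain kinases did not move together. Mylk2, the skeletal muscle form, was read at 865, 1267 and 1128 CPM in CAAHR 31, 34 and 36 and at 1250, 1059 and 1205 CPM in the GFP libraries. The groups overlapped fully, and the log2 fold change was -0.11 ± 0.15 (95% confidence interval -0.45 to 0.23, edgeR adjusted p = 0.729). Without CAAHR 31 the estimate was 0.03.

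Mylk4, a further light chain kinase of striated muscle, was lower in the CAAHR libraries. Its level was 1123, 1309 and 1034 CPM in CAAHR 31, 34 and 36 and 1786, 2063 and 1463 CPM in GFP 42, 43 and 46. The groups did not overlap, but the highest CAAHR and lowest GFP libraries were near each other. Its log2 fold change was -0.62 ± 0.15 (edgeR adjusted p = 0.0416). This call was narrow, since the adjusted p was 0.0502 when libraries were scaled by total count only and between 0.103 and 0.151 when CAAHR 31, CAAHR 36, GFP 42 or GFP 43 was left out.

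Mylk3, the light chain kinase known from the heart, was near absent from the GFP libraries and present at a low level in the CAAHR libraries. It had 4, 2 and 1 counts in GFP 42, 43 and 46 and 191, 85 and 170 counts in CAAHR 31, 34 and 36. Every CAAHR library was above every GFP library. Mylk3 passed the filter on low counts only through the CAAHR libraries, so the test values that follow describe that difference. The log2 fold change was 5.70 ± 0.53 (edgeR adjusted p = 6.2e-04), and the ratio of summed counts per scaled library size was 54.0, with an exact 95% interval of 26.0 to 135 that covers counting error only. Even so, Mylk3 stayed at 3.78, 1.49 and 2.79 CPM in the CAAHR libraries.

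Mylk3 remained a trace among the light chain kinases. In CPM per kb of exon, Mylk2 held 63.1% ± 5.61 and Mylk4 36.5% ± 5.56 of the summed level of the 4 kinases in the GFP libraries. In the CAAHR libraries these shares were 70.3% ± 3.81 and 29.0% ± 3.59. The split between Mylk2 and Mylk4 depends on the length used. Mylk4 has 7689 bases of exon and 1429 of coding sequence, and Mylk2 has 2951 and 1839. With coding length, Mylk4 came before Mylk2 in the GFP libraries, so which of them was the more abundant is not settled. The share of Mylk3 was 0.127% ± 0.0705 in the CAAHR and 0.00182% ± 0.0011 in the GFP libraries, and the smooth muscle and non-muscle form Mylk was below 1% in every library. The log2 ratio of Mylk4 to Mylk2 counts overlapped between the groups, at 0.38, 0.05 and -0.12 in the CAAHR and 0.52, 0.96 and 0.28 in the GFP libraries, so the lower Mylk4 was not separated from Mylk2 within libraries.

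Srpk3, the muscle SR protein kinase, was lower in the CAAHR libraries by about the same log2 amount as Mylk4. It was read at 29.7, 34.5 and 31.3 CPM in CAAHR 31, 34 and 36 and at 43.3, 47.3 and 55.4 CPM in the GFP libraries, with no overlap. The log2 fold change was -0.61 ± 0.11 (edgeR adjusted p = 0.0117), and the adjusted p was 0.0547 without CAAHR 31 and 0.0551 without CAAHR 36. The broadly expressed relatives were not called, with log2 fold changes of -0.07 for Srpk1 (adjusted p = 0.701) and -0.32 for Srpk2 (adjusted p = 0.0756). Srpk3 remained the main SRPK transcript, at 80.6% ± 2.58 of the summed CPM per kb in the GFP and 76.1% ± 1.78 in the CAAHR libraries.

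Speg differed little between the groups. It was read at 535, 531 and 539 CPM in GFP 42, 43 and 46 and at 531, 573 and 594 CPM in CAAHR 31, 34 and 36. The GFP libraries lay close together and the groups overlapped. Its log2 fold change was 0.08 ± 0.10 (95% confidence interval -0.15 to 0.31, edgeR adjusted p = 0.692). Its giant relative Ttn, the molecular spring of the sarcomere, was not called either (log2 fold change 0.03 ± 0.13, adjusted p = 0.905).

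Alpk3 was higher in the CAAHR libraries. Its level was 247, 261 and 293 CPM in GFP 42, 43 and 46 and 550, 398 and 581 CPM in CAAHR 31, 34 and 36. All CAAHR libraries were above the GFP range, CAAHR 34 by the least. Its log2 fold change was 0.93 ± 0.15 (edgeR adjusted p = 0.00679), and its adjusted p was at most 0.0354 under the 14 other settings.

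Alpk2, like Alpk3, was lowest among the CAAHR libraries in number 34, but there it overlapped the controls. It was read at 91.6, 44.6 and 90.8 CPM in CAAHR 31, 34 and 36 and at 48.0, 49.2 and 43.8 CPM in the GFP libraries. CAAHR 34 lay within the GFP range, and the other CAAHR libraries were well above it. The log2 fold change of 0.69 ± 0.26 (95% confidence interval 0.06 to 1.32) did not pass (edgeR adjusted p = 0.176). Without CAAHR 34 it was 0.95, with an adjusted p of 3.07e-04.

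Among the alpha kinases as a family, Alpk3 held 62.8% ± 3.69 of the summed CPM per kb in the GFP libraries and 71.5% ± 3.97 in the CAAHR libraries, with overlapping ranges. The summed level was 65.9 ± 2.46 CPM per kb in the GFP libraries and 110 ± 15.7 in the CAAHR libraries. Eef2k, the kinase of translation elongation factor 2, was the next most abundant and was not called (log2 fold change 0.26 ± 0.14, edgeR adjusted p = 0.287). Alpk1, Trpm6 and Trpm7 were not called either.

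Ordered by level per length, the kinases spanned a wide range in both groups. In the GFP libraries the order was Mylk2 (397 ± 33.9 CPM per kb, SD, n = 3), Mylk4 (230 ± 39.1), Sbk2 (68.6 ± 11.3), Speg (41.98 ± 0.305), Alpk3 (41.4 ± 3.62), Srpk3 (17.5 ± 2.21), Alpk2 (5.90 ± 0.357), Sbk3 (0.105 ± 0.0424) and Mylk3 (0.0117 ± 0.00748). Only Speg and Alpk3 overlapped among neighbours in that order. In the CAAHR libraries Alpk3 (79.1 ± 15.2) and Speg (44.4 ± 2.48) stood above Sbk2 (18.0 ± 1.297), which went from rank 3 to rank 5 while Alpk3 went from 5 to 3. There the overlapping neighbours were Srpk3 (11.4 ± 0.878) with Alpk2 (9.50 ± 3.38) and Sbk3 (0.759 ± 0.691) with Mylk3 (0.627 ± 0.268). With coding length in place of exon length, Mylk4 came before Mylk2 in the GFP libraries and the other ranks were kept.

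**Figure D3:**
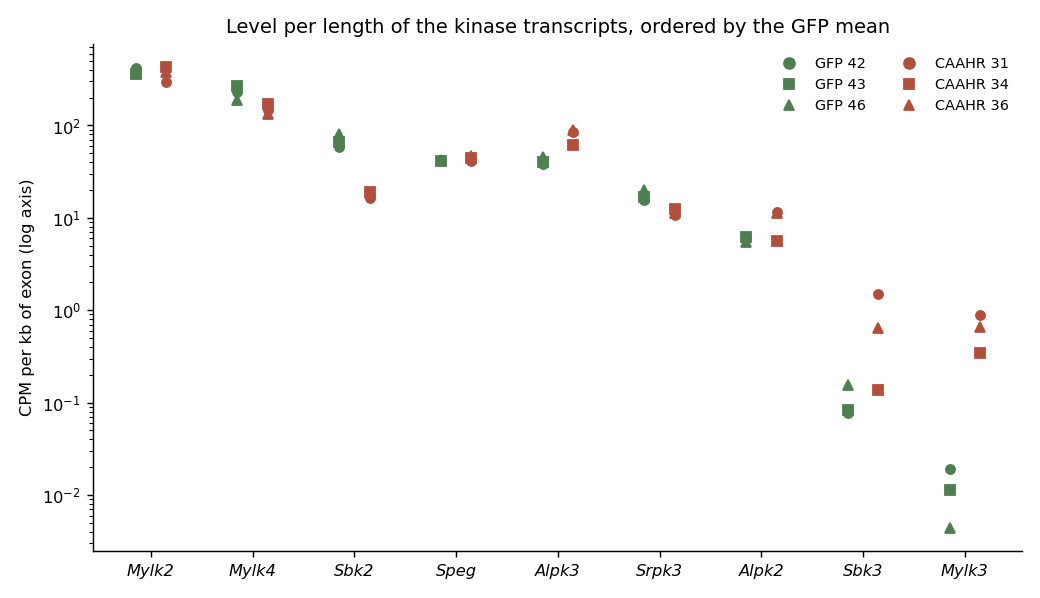
Level per length (CPM per kb of exon, log axis) of each kinase in every library, ordered from left to right by the GFP mean, with 1 symbol per library and GFP to the left of CAAHR. Sbk2 has its CAAHR libraries below all of its GFP libraries, and Sbk3 and Mylk3 stand at the right, below 2 CPM per kb in every library.

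The fall of Sbk2 was also read within each library, as the log2 ratio of its count to that of another kinase, which does not depend on how libraries are scaled. The ratio to Srpk3, a kinase that was itself lower, was 2.10, 2.13 and 2.20 in GFP 42, 43 and 46 and 0.81, 0.79 and 0.91 in CAAHR 31, 34 and 36, a difference of -1.31. The ratio to Mylk4 differed by -1.31 as well, with a wider spread in the GFP libraries (SD 0.45 against 0.05 for Srpk3). Against Speg, the ratio was -1.53, -1.36 and -1.08 in the GFP libraries and -3.35, -3.27 and -3.34 in the CAAHR libraries, a difference of -2.00. The difference was -1.80 against Mylk2, -2.53 against Alpk2, -2.84 against Alpk3, -4.27 against Sbk3 and -7.81 against Mylk3. The 2 groups did not overlap in any of these 8 ratios. Since Sbk2 was chosen for its fall and enters every ratio, these are a description and not a test, and those to Sbk3, Mylk3, Alpk2 and Alpk3 also hold the higher values of these genes in CAAHR libraries.

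**Figure D4:**
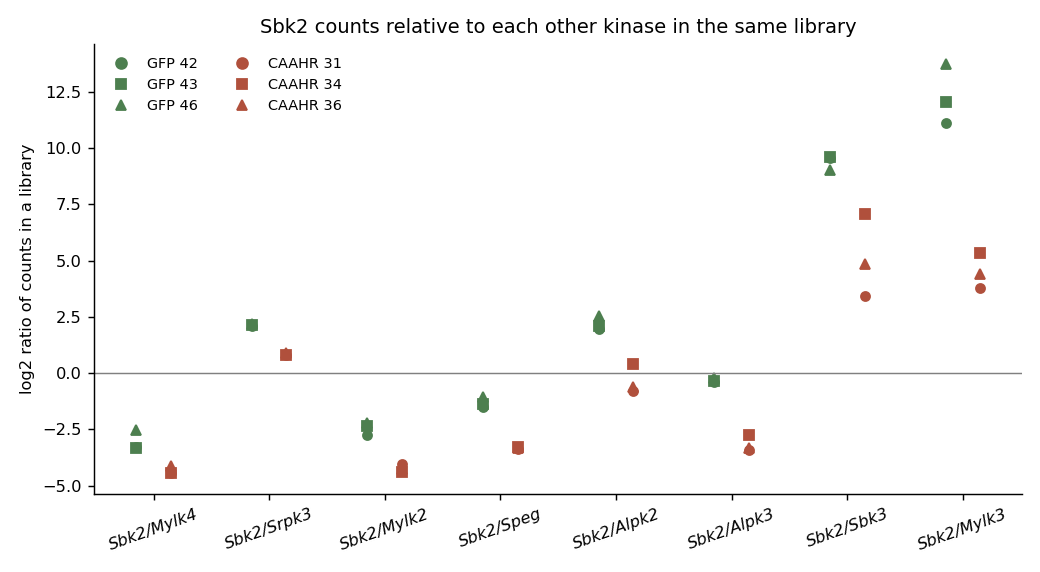
Log2 ratio of Sbk2 counts to the counts of each other kinase in the same library (vertical axis), with 1 symbol per library and GFP to the left of CAAHR. In each of the 8 ratios all CAAHR libraries lie below all GFP libraries, by the least for Mylk4 and Srpk3 and by the most for Mylk3.

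Markers of fibre type and of other cells differed between the groups and among the CAAHR libraries. The summed level of 9 slow fibre genes was 2818, 662 and 2546 CPM in CAAHR 31, 34 and 36 and 235, 343 and 474 CPM in the GFP libraries. None of the 9 was called by edgeR, although 8 had an unadjusted p under 0.05, 7 had groups that did not overlap, and DESeq2 called 8 and limma-voom 2, all higher. Over all 15847 genes, 3781 had an unadjusted p under 0.05 and 29.9% did not overlap. Myh7, which encodes the slow myosin heavy chain, was at 877, 156 and 809 CPM in CAAHR 31, 34 and 36 and between 37.5 and 79.5 CPM in the GFP libraries. Sbk3, Mylk3, Alpk2 and Alpk3 each had their lowest CAAHR level in library 34, as the slow fibre genes did, and their part in those results was not tested. Sbk2, Mylk2, Mylk4 and Srpk3 did not share that order and had their highest CAAHR level in library 34. For Sbk2 the margin was small (59.4 CPM in CAAHR 34 against 58.5 in CAAHR 36).

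The summed level of 10 fast fibre genes was 141400, 199600 and 164000 CPM in CAAHR 31, 34 and 36 and between 201300 and 209800 CPM in the GFP libraries, and 2 of the 10, the troponin genes Tnnt3 and Tnni2, were called lower. Each of these calls was lost when CAAHR 31, CAAHR 36, GFP 42, GFP 43 or GFP 46 was left out. Acta1 was lower in the CAAHR libraries (log2 fold change -0.74 ± 0.13, edgeR adjusted p = 0.00895), a change of about the size of those of Mylk4 and Srpk3, with the call lost without CAAHR 36 or GFP 46. The sum of 12 immune cell genes was between 32.1 and 43.9 CPM in the CAAHR libraries and between 159 and 477 CPM in the GFP libraries, with 5 of the 11 tested called lower. Of all 15847 genes, 4.57% were called lower. The marker lists were chosen with earlier results of these data known, so setting the fast fibre and immune counts beside that share is no test. By quantitative PCR, the paper found selected immune genes not lower in CAAHR muscle than in muscle without virus. It reads this as a local immune response to the GFP vector, which was not tested here. Of 5 adipocyte genes, whose median log2 fold change was -2.00, 1 was called, Plin1, the lipid droplet coat protein, at 0.56 to 2.20 CPM in the CAAHR and 5.36 to 14.4 CPM in the GFP libraries (log2 fold change -2.77 ± 0.58, edgeR adjusted p = 0.0474). That call held in 7 of 14 other settings, and the summed level of the list overlapped between the groups (85.1 to 133 against 88.9 to 200 CPM). With 7.60% of all genes called, 1 call among 5 is too few to set the adipocyte list apart. The fast fibre sum, the immune sum and Acta1 were lower in every CAAHR library than in any GFP library, as were Sbk2, Mylk4 and Srpk3. The order among libraries was shared in part. Among the CAAHR libraries, the fast fibre sum, Mylk4 and Srpk3 were each highest in CAAHR 34, as was Sbk2 by a small margin. In CAAHR 34 the fast fibre sum was near its GFP range while Sbk2 was far below its own. The immune sum was highest in GFP 43 and Sbk2 in GFP 46. The part of these markers in the lower kinases was not tested. In whole muscle, fewer cells of a type and less RNA per cell cannot be told apart.

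Heart muscle genes were checked since Mylk3 and Alpk3 are known from the heart. The sum of 8 of them was between 10.96 and 16.8 CPM in the CAAHR libraries and between 12.7 and 13.6 CPM in the GFP libraries. The atrial peptide gene Nppa was at or below 0.0721 CPM in every library, and the atrial light chain Myl7, the peptide gene Nppb and cardiac Mybpc3 were near or at 0 in all. Myh6, the cardiac myosin heavy chain, was at 6.80, 1.49 and 7.07 CPM in CAAHR 31, 34 and 36 and between 0.793 and 0.974 CPM in the GFP libraries (edgeR adjusted p = 0.0536), again lowest in CAAHR 34. The atrial and embryonic light chain Myl4, the 1 of the 4 tested genes that was called, went the other way, at 4.603 to 5.04 CPM in the CAAHR and 7.25 to 7.93 CPM in the GFP libraries (log2 fold change -0.64 ± 0.12, edgeR adjusted p = 0.0144), a call lost without CAAHR 36 or GFP 43. With 7.60% of all genes called, 1 call among 4 is too few to set the heart muscle list apart. Smooth muscle genes summed to between 89.7 and 185 CPM in the CAAHR and between 154 and 178 CPM in the GFP libraries.

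**Figure D5:**
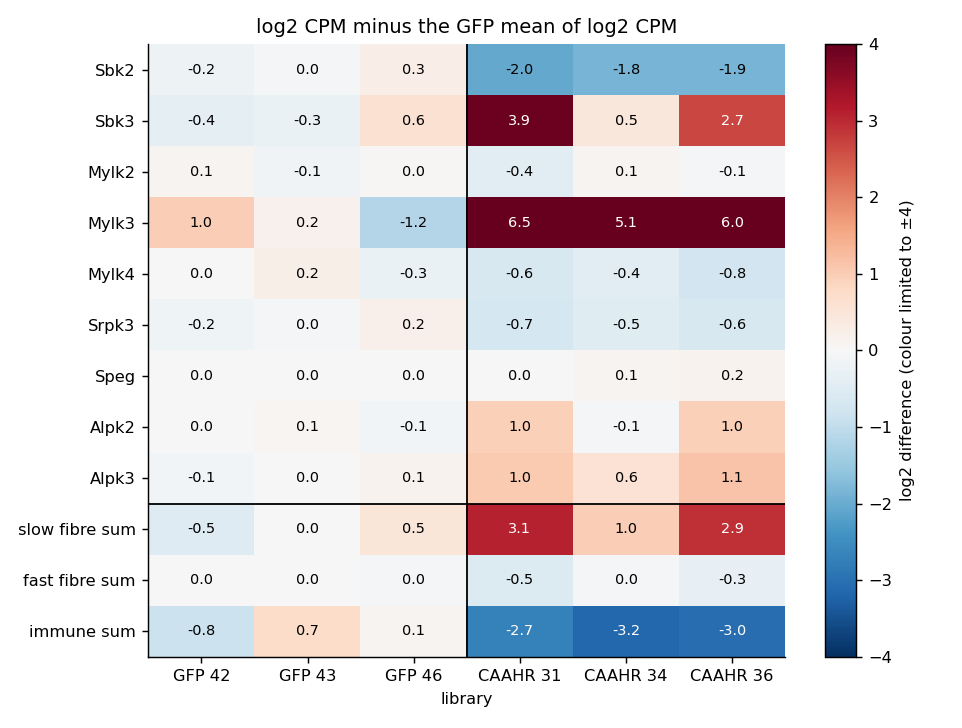
Log2 CPM minus the mean of the GFP libraries for each kinase (rows) in each library (columns), with summed marker levels of slow fibres, fast fibres and immune cells in the lowest rows, and colour limited to ±4. The CAAHR columns are blue for Sbk2, Mylk4 and Srpk3 and red for Mylk3 and Alpk3, and Sbk3, Alpk2 and the slow fibre sum are palest in CAAHR 34.

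Family relatives and other kinases of muscle were counted in the same way. Of the 9 family relatives, 1 was called (Sbk1, lower), and their median log2 fold change was -0.03. Of 22 other kinases of muscle, 21 were tested and 3 were called, with a median of -0.02. Hipk3, a kinase of the homeodomain-interacting family, was at 477, 484 and 462 CPM in CAAHR 31, 34 and 36 and at 391, 339 and 327 CPM in the GFP libraries (log2 fold change 0.43 ± 0.11, edgeR adjusted p = 0.0432), a call lost without CAAHR 31, CAAHR 34, CAAHR 36, GFP 43 or GFP 46. Camk2d, an isoform of calcium/calmodulin-dependent kinase II, was lower (log2 fold change -0.44 ± 0.12, edgeR adjusted p = 0.0484), and so was Mapkapk3, which is activated by p38 (log2 fold change -0.66 ± 0.11, edgeR adjusted p = 0.00773). Mapkapk3 was called in all 14 other settings, while the call of Camk2d was lost without CAAHR 36, GFP 42, GFP 43 or GFP 46. Prkag3, the fast muscle regulatory subunit of AMP-activated kinase, had a log2 fold change of 0.61 ± 0.19 that did not pass (adjusted p = 0.0866). The shares called, 1 of 9 and 3 of 21, can be read against the 7.60% of all genes and are too few to set the lists apart from it or from the 8 kinases.

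The genes that act with the light chain kinases were called at about the share of all genes. Of 12 light chain, light chain phosphatase and calmodulin genes, 1 was called, Ppp1r12a, a targeting subunit of myosin phosphatase, which was higher (log2 fold change 0.43 ± 0.11, edgeR adjusted p = 0.0401). That is 8.33% of the list, near the 7.60% of all genes, and the call was lost whichever library was left out. The regulatory light chains, on which the kinases act, were read at 5806 to 6168 CPM in the GFP and 3558 to 5231 CPM in the CAAHR libraries for Mylpf, the fast form (log2 fold change -0.50 ± 0.16, adjusted p = 0.0879). The slow and cardiac form Myl2 was at 217, 49.2 and 210 CPM in CAAHR 31, 34 and 36 and at 12.6, 26.6 and 53.1 CPM in the GFP libraries (log2 fold change 2.36 ± 0.82, adjusted p = 0.171), so its groups overlapped through CAAHR 34. The median of the 12 was 0.02.

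None of the 3 MEF2 factors tested of 4 listed was called by edgeR, with 1 at an unadjusted p under 0.05, while DESeq2 called 1, Mef2c, and limma-voom 0. Mef2c, a MEF2 factor of skeletal and heart muscle, was at 991, 807 and 787 CPM in CAAHR 31, 34 and 36 and between 629 and 698 CPM in the GFP libraries (log2 fold change 0.37 ± 0.12, adjusted p = 0.104). None of 6 genes whose products work with Speg or beside it at the calcium release and uptake sites was called by edgeR, with 2 at an unadjusted p under 0.05, while DESeq2 and limma-voom each called 2, Atp2a2 and Des. Of these, Atp2a2, the calcium pump of slow fibres and heart, was at 756, 213 and 586 CPM in CAAHR 31, 34 and 36 and between 84.4 and 123 CPM in the GFP libraries (log2 fold change 2.32 ± 0.49, adjusted p = 0.0526). Ryr1, the calcium release channel, had a log2 fold change of 0.11 ± 0.13 (adjusted p = 0.662), and Des, the muscle intermediate filament, one of -0.48 ± 0.13 (adjusted p = 0.0554).

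The genes around Sbk2 were examined for a shared fall. Within 50 kb of it on chromosome 7 were 10 other genes, of which 8 were tested, Sbk3 among them, and none was called by edgeR, with 2 at an unadjusted p under 0.05. DESeq2 called 2, Sbk3 and Nat14, and limma-voom called 1, Nat14, both genes being higher. With 7.60% of all genes called, no call among 8 is near the background. Nat14, an N-acetyltransferase family gene, came nearest to a call and was higher in every CAAHR library, at 1.96, 2.03 and 2.59 CPM against 0.788, 1.298 and 1.42 CPM in the GFP libraries (log2 fold change 0.91 ± 0.26, adjusted p = 0.0649). The zinc finger genes Zfp628, Zfp579 and Fiz1 had log2 fold changes of 0.08, 0.16 and -0.14. Ssc5d, whose gene body overlaps that of Sbk2 on the opposite strand without sharing exon bases, had one of 0.25 ± 0.38 (adjusted p = 0.76).

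The genes whose profile over the 6 libraries was most like that of Sbk2 were none of the other kinases. Likeness was measured as the root mean square difference of log2 CPM, each gene centred on its own mean, over 8875 genes with a mean of at least 5 CPM. The nearest were Cacna2d4 (0.17), an auxiliary subunit of voltage-gated calcium channels, Plekho1 (0.18), Sctr (0.21), the secretin receptor, Spns2 (0.21), a sphingosine 1-phosphate transporter, and Tdrp (0.25). Their log2 fold changes ran from -1.94 to -1.59, which their likeness to Sbk2 fixes. On the same measure the nearest of the kinases were Srpk3 at 0.66 and Mylk4 at 0.71, and the farthest was Mylk3 at 3.81.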

How the data were processed

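Whole-number counts per gene were deposited by the authors for 6 libraries. According to the methods and the submitters' processing notes, poly(A)-selected RNA was sequenced as paired ends, trimmed with Trimmomatic 0.36, aligned to GRCm38 with STAR 2.5.2b and counted over exons with featureCounts, with no normalisation and no pooling. Reads shared by near-identical copies are lost from unique counts. Of 49315 genes, 49056 (99.5%) were found in GENCODE M21, which gave positions and exon lengths. A further 174 rows had no symbol (0.0154% of counts) and were kept as genes.

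The analysis used edgeR 4.0.16 under R 4.3.3. Genes had to pass filterByExpr, scaling was by TMM (trimmed mean of M values), and CAAHR was set against GFP with the quasi-likelihood F test (robust estimation), with Benjamini-Hochberg adjustment over all 15847 genes tested and a threshold of 0.05. CPM and CPM per kb of exon were computed from the deposited counts. Standard errors were derived from the F statistic, and intervals of log2 fold changes are at 95% and unadjusted. An exact test over 3 against 3 libraries cannot go below p = 0.1, so no single-value test was run. DESeq2 1.42.0, limma 3.58.1 (voom), other scalings and filters and leaving out each library served as alternatives. The fit was also run on simulated counts with large changes in well-counted genes. That run does not bear on calls of modest size, on scarce transcripts or on a library that differs from its group. No 2 libraries of a group agreed within sampling noise (chi-square divided by its degrees of freedom, at least 21.6). Named were the 9 kinases, their relatives, the called genes and the 2 with the largest changes of each list of kinases and partners, the defining marker genes, Ahr and Cyp1a1, and the 5 genes most like Sbk2. Neighbours of Sbk2, Ryr1 and further marker genes were named after their values were seen. The 9 kinases and the lists were chosen with earlier results of these data known. Counting intervals cover counting error only. A further relative is not reported here.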

Additional observations from a re-analysis of the deposited data

How the results depend on the processing

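No paired analysis was possible because no replicate number occurs in both groups. Leaving out each library in turn gave 2 to 6 called among the 8 kinases (4 in the full fit), 0 to 1 among the family relatives (1) and 1 to 2 among the other kinases of muscle (3). Family relatives called were 2 with upper quartile scaling and 0 with scaling by total count, and other kinases called were 6 with no filter on low counts and 5 with DESeq2. Of all genes, 2470 were called with no filter, 1923 with DESeq2 and 530 to 1727 with a library left out. Of the 5 genes most like Sbk2, 2 were shared with the search from a mean of 1 CPM. The cause of these shifts was not tested.

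Directions that turned were those of values near 0. The log2 fold change of Mylk2 ran from -0.242 to 0.0261 when a library was left out. The median of family relatives was 0.0571 with scaling by total count and ran from -0.0984 to 0.0464 over the libraries left out. That of other kinases was 0.0576 with scaling by total count and ran from -0.0608 to 0.0113, and that of the light chain list was -0.0535 with upper quartile scaling, -0.0203 with limma-voom and -0.0551 to 0.044 with a library left out.

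Alpk3 kept its call in every alternative. Mylk3 was called wherever it was tested, but it did not pass a minimum of 10 counts in every library. In the main fit Mylk3 passed the filter on low counts only through the CAAHR libraries, where it was high, so its calls describe that difference. The alternatives use the same libraries and add no independent support. Sbk3 and Alpk2 were called by DESeq2 (adjusted p = 0.0273 and 0.0226). With 3 libraries per group, changes of modest size, and transcripts that vary widely within a group such as Sbk3, cannot be stated firmly.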
